A study of Mus musculus with 4 samples.

Results

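The splicing factor and hnRNP genes studied here are the genes whose symbol starts with Snrp, with Srsf or the older Sfrs followed by a digit, with Sf3a or Sf3b followed by a digit, or with Hnrnp. In all 4 libraries together, 47 single gene symbols matched, and 45 of them, out of 12417 genes kept, could be compared between libraries. Grouped by the start of the symbol alone, they comprise 11 snRNP proteins, 8 SF3a and SF3b subunits, 11 SR proteins and 15 hnRNP proteins. Sfrs18 thus counts among the SR proteins by its name only. A row was listed in all 4 libraries for 44 of the 45, the exception being Sfrs18. The remaining matching symbols, Hnrnpm and Hnrnpd, share a row with a neighbouring gene in 1 library each and are described apart.

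RNA was measured in sorted bone marrow cells of C57BL/6 mice aged 8 to 12 weeks, as 4 libraries: 1 of WT and 1 of GRK6-/- cells for HSC, and the same for CLP. Where 4 values follow each other below, they are given as HSC of WT, then of GRK6-/-, followed by CLP of WT, then of GRK6-/-. GRK6-/- mice lack exons 3 to 9 of the gene of G protein-coupled receptor kinase 6, and WT mice were littermates from crosses of heterozygotes. HSC here are Lin-c-kit+sca-1+ cells, a gate that holds stem cells and multipotent progenitors together, and CLP are cells of that gate that also carry Il-7Ra. Each library pools cDNA from 13 to 15 cells of 3 to 4 mice, amplified cell by cell through 20 and then 10 PCR cycles, so each group is 1 library and no difference has a replicate check. Levels are FPKM, fragments per kilobase of transcript scaled to the mapped fragments of the library, as the authors computed them.

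Nuclear pre-mRNA is spliced by the spliceosome, which is built from small nuclear RNAs carried by proteins (snRNPs). The U1 snRNP marks the start of an intron, and the U2 snRNP, with the SF3a and SF3b complexes, binds the branch point near its end. SR proteins bind exons and help the snRNPs to choose splice sites, whereas hnRNP proteins coat the nascent transcript and often repress the sites they cover. All of these genes are active in nearly every cell, and SF3B1, SRSF2 and the 3′ splice site protein U2AF1 are mutated in human myelodysplastic syndromes, diseases that arise in hematopoietic stem cells.

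To show the members on which the genotype comparison turns, the 250 bases before the annotated start of Snrpd3, Srsf9, Hnrnph2, Srsf10 and Hnrnpab follow. These 5 have a row in every library and differed more than 2-fold between genotypes in HSC and in CLP. Sfrs18 passed as well but has no row in the WT libraries, and its window is not shown. Each is written 5′ to 3′ on the gene's own strand (RefSeq, GRCm38.p6), and capitals mark the CCAAT box, as CCAAT or as its reverse complement ATTGG.
Snrpd3, chr10:75517792-75518041, plus strand: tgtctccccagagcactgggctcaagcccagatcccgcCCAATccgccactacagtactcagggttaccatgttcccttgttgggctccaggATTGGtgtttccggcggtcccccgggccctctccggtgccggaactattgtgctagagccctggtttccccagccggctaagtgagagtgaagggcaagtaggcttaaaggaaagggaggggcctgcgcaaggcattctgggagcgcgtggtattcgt
Srsf9, chr5:115326927-115327176, plus strand: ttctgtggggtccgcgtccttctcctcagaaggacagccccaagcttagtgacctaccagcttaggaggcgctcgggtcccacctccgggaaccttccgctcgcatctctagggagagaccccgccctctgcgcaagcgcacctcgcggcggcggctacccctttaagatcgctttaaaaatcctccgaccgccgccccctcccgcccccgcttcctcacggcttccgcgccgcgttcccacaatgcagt
Hnrnph2, chrX:134600929-134601178, plus strand: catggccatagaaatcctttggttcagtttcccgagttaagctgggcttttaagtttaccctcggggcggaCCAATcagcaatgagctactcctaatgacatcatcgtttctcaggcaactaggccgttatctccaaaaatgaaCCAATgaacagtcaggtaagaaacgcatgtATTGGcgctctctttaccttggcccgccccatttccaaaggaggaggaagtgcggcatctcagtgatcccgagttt
Srsf10, chr4:135855821-135856070, plus strand: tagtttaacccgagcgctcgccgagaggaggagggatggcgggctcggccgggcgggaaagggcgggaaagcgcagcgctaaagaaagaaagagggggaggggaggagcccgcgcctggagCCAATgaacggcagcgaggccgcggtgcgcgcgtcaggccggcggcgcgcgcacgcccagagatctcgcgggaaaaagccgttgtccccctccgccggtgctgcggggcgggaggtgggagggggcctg
Hnrnpab, chr11:51606882-51607131, minus strand: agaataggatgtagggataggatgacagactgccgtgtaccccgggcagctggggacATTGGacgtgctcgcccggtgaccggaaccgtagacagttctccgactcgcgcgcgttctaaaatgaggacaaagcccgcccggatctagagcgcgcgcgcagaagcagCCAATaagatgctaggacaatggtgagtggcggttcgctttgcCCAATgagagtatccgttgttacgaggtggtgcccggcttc

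The windows were searched on both strands for CCAAT, the E-box CACGTG, the TATA box TATAAA and the ETS core CCGGAAG, none of which contains another. A CCAAT box stands in 4 of the 5 windows, Srsf9 being without one, and none of the 5 holds the other motifs. Among the 39 members with a promoter in RefSeq under the same symbol, 20 hold CCAAT, 13 hold CCGGAAG, 4 hold TATAAA and 3 hold CACGTG in at least 1 promoter. Counted in the same way over all 27025 genes with a promoter window, 37.5% hold CCAAT, 7.83% CCGGAAG, 14.3% TATAAA and 6.86% CACGTG. The ETS core is shown in the windows of the highest 2 members that hold it, Snrpg and Srsf7, again with every motif found in capitals.
Snrpg, chr6:86371290-86371539, plus strand: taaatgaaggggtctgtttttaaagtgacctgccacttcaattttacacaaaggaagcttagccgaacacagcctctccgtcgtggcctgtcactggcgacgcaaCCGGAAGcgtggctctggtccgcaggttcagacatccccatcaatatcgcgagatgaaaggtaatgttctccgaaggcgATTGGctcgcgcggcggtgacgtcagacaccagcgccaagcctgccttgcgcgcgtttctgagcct
Srsf7, chr17:80207306-80207555, minus strand: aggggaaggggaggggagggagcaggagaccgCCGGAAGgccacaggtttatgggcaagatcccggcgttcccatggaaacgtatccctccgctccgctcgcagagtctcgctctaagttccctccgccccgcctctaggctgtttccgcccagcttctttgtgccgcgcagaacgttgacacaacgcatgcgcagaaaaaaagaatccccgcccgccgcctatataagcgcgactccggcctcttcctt

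Before the results, the libraries were compared with their labels. Grk6 itself was listed at 42.7 FPKM in WT and 89.4 in GRK6-/- HSC, and at 26.9 in WT against 57.6 in GRK6-/- CLP. It was thus higher in the GRK6-/- libraries, but a level for the whole gene includes exons outside the deletion and checks nothing, so the genotypes below are those of the labels. Among CLP markers, Il7r was at 0 and 1.08 FPKM in the HSC libraries against 120 and 75.1 in the CLP libraries, and Ly6d was at 0 in both HSC libraries. Dntt, at 114, 92.3, 931 and 562, and Flt3, at 54.5, 23.8, 124 and 219, were also higher in both CLP libraries. Rag1, at 0, 0, 23.0 and 2.47, and Rag2, at 0, 0.307, 94.5 and 0, were high in WT CLP only. Notch1 went the other way, at 5.54, 3.73, 0 and 2.71. Summed FPKM of the 7 CLP markers was 174, 121, 2731 and 1913, and that of 10 of 11 stem and progenitor markers 399, 499, 461 and 712. Over 7 of 10 listed erythroid genes, FPKM was 338, 1701, 154 and 18111. Over 8 of 9 B lineage genes the sums were 41.9, 35.5, 309.9 and 1566, and over 8 of 8 myeloid genes they were 17839, 11341, 9385 and 7742. Both GRK6-/- libraries were thus above their WT library in erythroid genes, and the part of this in the differences below was not tested. In pooled cells, fewer cells of a type and less RNA per cell cannot be told apart. From the steps between low FPKM values, the libraries hold about 2880000, 3800000, 4370000 and 2790000 fragments, an estimate that assumes annotated lengths. It is lower than the number of reads stated in the study's methods, and the gap was not resolved, so fragment numbers and intervals below hold only for the estimated depth.

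The members were expressed well above the typical gene in every library, and by the median their levels differed less between libraries than those of all genes. Their median FPKM was 81.3, 76.6, 72.2 and 85.1, where the 8246 genes with a row in all 4 libraries had medians of 14.5 to 15.5. Between the lowest and the highest library, the 44 members with 4 values differed by a median of 1.86-fold. The same ratio had a median of 3.91 over the 8246 genes, 3.13 over those with a mean FPKM of at least 10 and 2.03 over those with at least 100. A ratio under 1.5 was found for 11 of the 44 members and one of at least 4 for 8, with 5.91% and 49.2% of all genes in these ranges. Among the genes of at least 100 FPKM, these shares were 19.9% and 13.1%.

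**Figure D1:**
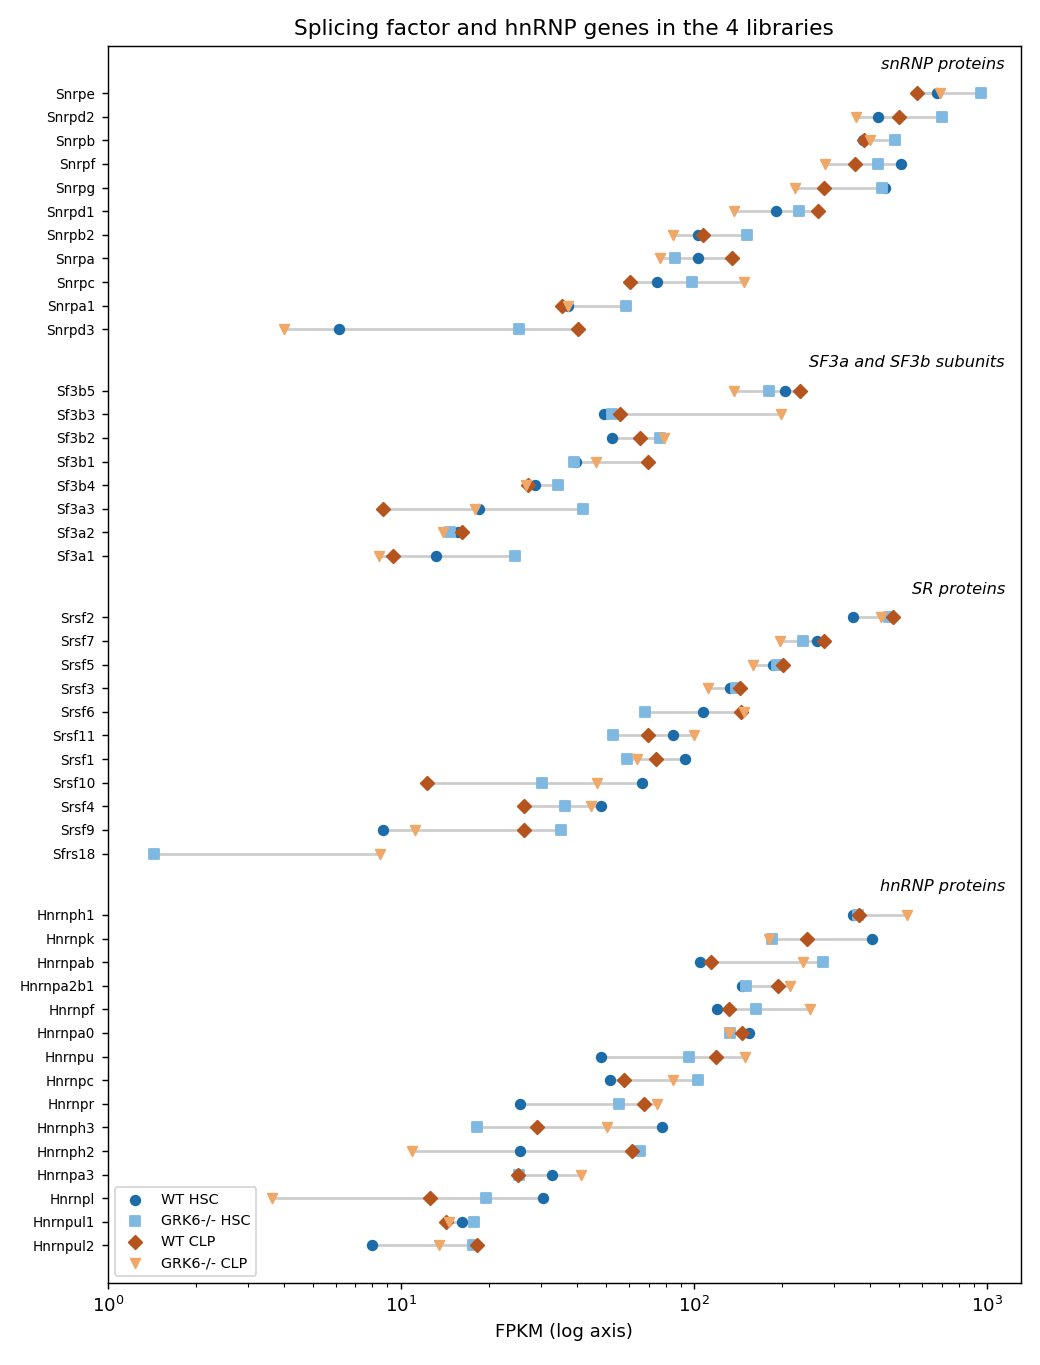
FPKM on a log axis of the 45 splicing factor and hnRNP genes, 1 line per gene in order of mean FPKM within its group, with 1 point per library and a grey line from the lowest to the highest. Snrpe is highest, at 578 to 953 FPKM, and Snrpd3, Hnrnph2 and Hnrnpl have the longest lines among genes with 4 points. Sfrs18 has points only for the GRK6-/- libraries, since it had no row in the others.

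The snRNP proteins were the most abundant group, with FPKM summing to 2949 and 3649 in HSC of WT and GRK6-/-, and to 2733 and 2436 in CLP. Their sum was highest in GRK6-/- HSC and lowest in GRK6-/- CLP, and the highest was 1.5 times the lowest. Most of it came from the Sm proteins, 7 of which form the ring that closes around the U1, U2, U4 and U5 small nuclear RNAs. Snrpe, encoding SmE, stood at 676, 953, 578 and 692 FPKM. Snrpd2, encoding SmD2, was listed at 424, 699.9, 501 and 358 FPKM. Snrpb, encoding SmB, was at 376, 485, 380 and 398 FPKM, within 1.29-fold, and was the steadiest snRNP gene.

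The ring was not evenly represented. Snrpd3, the gene of SmD3 (chr10:74980787-74998185 on mm9, plus strand), was at 6.18, 25.3, 40.1 and 4.00 FPKM, below the other 6 Sm genes in each library. The lowest of those 6 was Snrpd1 throughout, at 191, 229, 265 and 136 FPKM. Their median FPKM was 70.7, 18.2, 9.17 and 79.7 times that of Snrpd3. Snrpd3 was therefore low in WT HSC and GRK6-/- CLP and higher in the remaining libraries, a 10.0-fold range, whereas the other Sm genes differed by at most 2.03-fold between libraries. FPKM is scaled by annotated length and the cDNA was primed at the poly(A) tail, so levels of different genes also depend on how their 3′ ends are annotated, which was not tested. The longest Snrpd3 transcript in the GENCODE M1 annotation has 604 bases, on which these levels correspond to about 11, 58, 106 and 7 fragments at the estimated depth, which is below the stated read number.

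**Figure D2:**
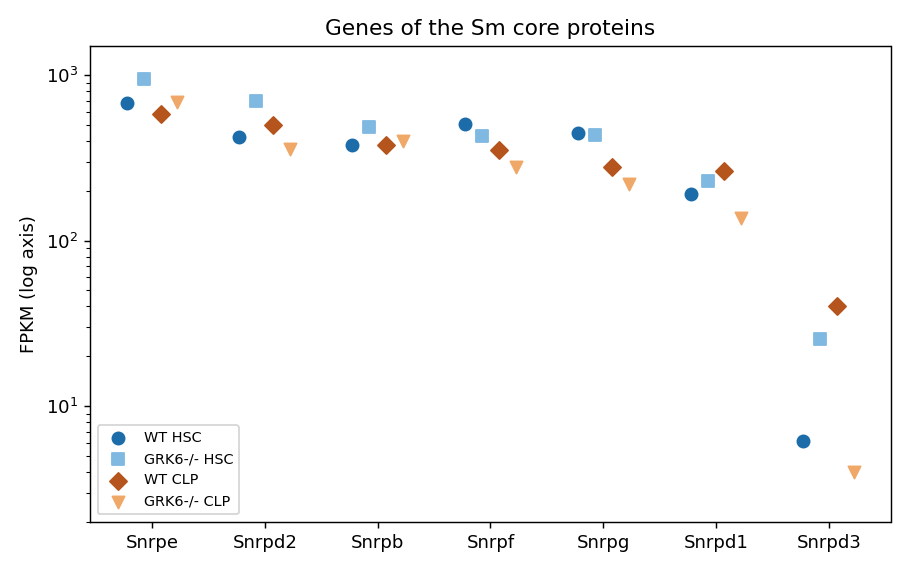
FPKM on a log axis of the 7 Sm core genes, 1 symbol per library. The other 6 genes lie between 136 and 953 FPKM in every library, while Snrpd3 lies between 4.00 and 40.1 with GRK6-/- CLP and WT HSC lowest.

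Other snRNP genes belong to a single particle. Those of the U1 particle were Snrpa, at 103, 86.5, 135 and 76.5 FPKM, and Snrpc, which helps U1 to hold the start of the intron, at 74.9, 98.6, 60.4 and 148. Snrpc was highest in GRK6-/- CLP, where its log2 ratio of FPKM + 1 to WT CLP was 1.28. The U2 proteins Snrpb2 and Snrpa1 were at 85.1 to 152 FPKM and at 35.4 to 58.4, both highest in GRK6-/- HSC. Between genotypes in HSC, 8 of the 11 snRNP genes were above zero on the log2 scale and in CLP 7 of 11 were below it, with medians of 0.39 and -0.33. Of genes with a mean FPKM of at least 100, 43.5% were below zero in HSC and 58.0% in CLP, with medians of 0.13 and -0.13. The count of snRNP genes in CLP is near that share. Snrpa1, Snrpc and Snrpd3 have lower means, of 42.0, 95.5 and 18.9 FPKM. Of genes between 10 and 100 FPKM, 49.5% were below zero in HSC and 49.3% in CLP. CLP were lower than HSC for 10 of 11 in the GRK6-/- libraries, with a median of -0.64, Snrpc being the exception. Of the genes with a mean FPKM of at least 100, 65.8% were lower in that same comparison, with a median of -0.30. In the WT libraries, 5 of 11 were lower in CLP. All but Snrpd3 and Snrpc stayed within 2-fold in each of the 4 comparisons.

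SF3a and SF3b subunits summed to 422, 464, 483 and 526 FPKM. Sf3b5, the smallest SF3b subunit, had the highest mean, at 205, 180, 230 and 137 FPKM, and was below Sf3b3 in GRK6-/- CLP alone. Sf3b2 was at 52.6, 76.6, 65.2 and 78.8. Sf3b1, the largest SF3b subunit and the one that holds the branch point, was at 39.7, 39.0, 70.0 and 46.4, and its log2 ratios between genotypes were -0.02 in HSC and -0.58 in CLP. Sf3b3 (chr8:113334392-113370703 on mm9, minus strand) was at 49.3, 52.3, 56.1 and 198, so a single library stood apart, with log2 ratios of 0.08 in HSC and 1.80 in CLP. Its exons share 129 bases with Cog4, which was at 1.53, 17.5, 12.4 and 1.06 FPKM, and whether the genes share reads was not tested. Sf3a3 was at 18.5, 41.7, 8.69 and 17.9 FPKM, above WT in both populations, with log2 ratios of 1.13 in HSC and 0.97 in CLP. Sf3a2 moved least, from 13.9 to 16.2 FPKM.

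SR proteins had nearly level sums of 1339, 1314, 1453 and 1325 FPKM, the highest 1.11 times the lowest. Srsf2, which promotes inclusion of exons it binds, led with 347, 463, 478 and 436 FPKM. By mean FPKM, Srsf7 and Srsf5 followed, at 263, 236, 277 and 197 and at 186, 192, 201 and 159. Srsf3 was at 111 to 144 FPKM and, like these, within 1.5-fold over the libraries, while Srsf6 ranged from 68.1 to 148. Srsf1, the founding member of the family, was at 93.5, 59.3, 74.4 and 64.0, and Srsf11 at 85.1, 53.0, 69.7 and 99.9. Srsf9 (chr5:115777186-115783089 on mm9, plus strand) was at 8.69, 35.1, 26.3 and 11.1 FPKM, high in GRK6-/- HSC and WT CLP. Srsf10 (chr4:135412007-135425814, plus strand), a member known as a repressor of splicing when it loses its phosphates, was at 66.7, 30.2, 12.3 and 46.8, with the high and low libraries the other way round. Sfrs18 had no row in the WT libraries and was at 1.44 FPKM in GRK6-/- HSC and 8.48 in GRK6-/- CLP. No fold is given for it, since it is listed in neither WT library, though it counts as higher below.

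Genes of hnRNP proteins summed to 1594, 1686, 1599 and 1985 FPKM, highest in GRK6-/- CLP. Hnrnph1, a binder of G-rich runs, was at 348, 362, 366 and 534, and Hnrnpk, which binds C-rich runs, at 406, 184, 243 and 180. Hnrnpk was thus highest in WT HSC, with a log2 ratio of GRK6-/- to WT of -1.14 in HSC and -0.43 in CLP. Hnrnpa2b1 stood at 146, 150.1, 194 and 213 and Hnrnpa0 at 132 to 154 FPKM, the narrowest range of the group. Hnrnpab (chr11:51413602-51420383 on mm9, minus strand), a protein of the A/B type, was at 105, 275, 114 and 235, so both GRK6-/- libraries were above both WT libraries. Hnrnpc, a binder of U-rich runs, and Hnrnpu, a protein of the nuclear scaffold, were also lowest in WT HSC, at 51.5, 103, 57.8 and 85.0 and at 48.0, 95.9, 119 and 149 FPKM, with log2 ratios of FPKM + 1 in HSC of 0.99 and 0.98, just inside 2-fold. With a pseudocount of 0.1, Hnrnpc passed it at 1.003.

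Lower hnRNP genes varied more. Hnrnph2 (chrX:131135825-131141593 on mm9, plus strand), a close relative of Hnrnph1 with which it could share reads, was at 25.6, 65.5, 61.5 and 10.96 FPKM. Hnrnph3 was at 77.5, 18.2, 29.1 and 50.5, its lowest value in GRK6-/- HSC. Hnrnpl, whose protein represses the variable exons of CD45 in lymphocytes, was at 30.6, 19.5, 12.5 and 3.64, lowest in GRK6-/- CLP. Hnrnpr and Hnrnpul2 were at 25.5, 55.7, 67.7 and 74.5 and at 7.94, 17.7, 18.2 and 13.4, each lowest in WT HSC. Hnrnpul1, the relative of the latter, stayed between 14.3 and 17.8.

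The loci of Hnrnpm, Hnrnpd and Hnrnpa1 were named differently between libraries. Hnrnpm was at 402 FPKM in WT HSC, 280 and 432 in CLP of WT and GRK6-/-, while for GRK6-/- HSC a joint row of Hnrnpm and March2 held 279. Its log2 ratio in CLP was 0.63. Hnrnpd had rows of its own in the GRK6-/- libraries, at 23.7 in HSC and 20.0 in CLP. In WT CLP it shared a row with Hnrpdl at 170 FPKM, and in WT HSC a row named Hnrpdl at 124 spans both genes. The Hnrnpa1 locus on chromosome 15 was listed under Gm5643, Hnrnpa1 and Gm10052 at 559 and 459 FPKM in WT and GRK6-/- HSC, but under Gm5643 alone at 201 and 141 in the CLP libraries. No ratio is given for Hnrnpd or Hnrnpa1.

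The genotype comparison asks how loss of GRK6 goes with transcript levels in each population. In HSC, 8 members were at least 2-fold higher in GRK6-/- than in WT (log2 ratio of FPKM + 1 of at least 1) and 3 were at least 2-fold lower, 11 of 45, where 37.4% of the 11624 genes compared passed 2-fold. The median log2 ratio was 0.12 for the members and 0.05 for all genes. Those higher were Srsf9 with a log2 ratio of 1.90, Snrpd3 with 1.88, Hnrnpab with 1.38, Hnrnph2 with 1.32, Sfrs18, Sf3a3 with 1.13, Hnrnpr with 1.09 and Hnrnpul2 with 1.06. Lower were Hnrnph3 with -2.03, Hnrnpk with -1.14 and Srsf10 with -1.12. By group, 6 of 15 hnRNP, 3 of 11 SR, 1 of 8 SF3 and 1 of 11 snRNP genes passed.

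In CLP, 5 members were at least 2-fold higher in GRK6-/- and 4 at least 2-fold lower, 9 of 45, against 50.0% of the 11191 genes compared. Medians were -0.02 for the members and 0.05 for all genes. Higher were Sfrs18, Srsf10 with a log2 ratio of 1.85, Sf3b3 with 1.80, Snrpc with 1.28 and Hnrnpab with 1.03. Lower were Snrpd3 with -3.04, Hnrnph2 with -2.39, Hnrnpl with -1.54 and Srsf9 with -1.17. The counts differed by expression level. Of the 21 members with a mean FPKM of at least 100, 2 passed in HSC and 1 in CLP, with 18.4% and 23.0% of all genes of that level. Of the 23 members between 10 and 100 FPKM, 8 passed in HSC and 7 in CLP, with 35.3% and 47.5% of genes.

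**Figure D3:**
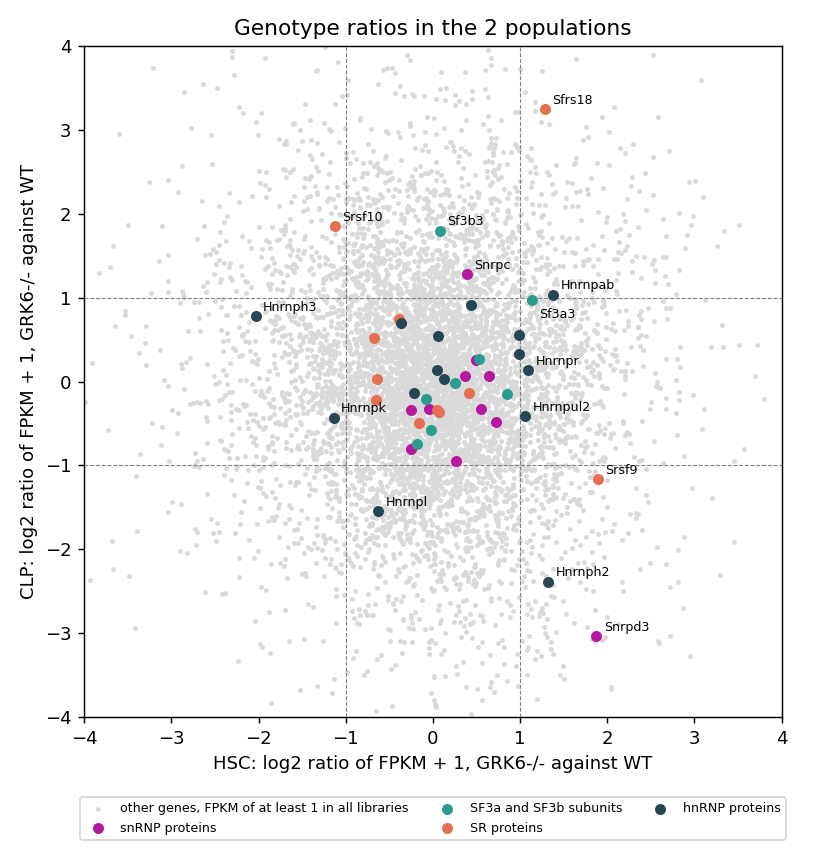
Log2 ratio of FPKM + 1 of GRK6-/- to WT in HSC (x axis) and in CLP (y axis), with members coloured by group, other genes of at least 1 FPKM in all 4 libraries in grey, genes beyond 4 on either axis not drawn, and dashed lines at 2-fold. Members past 2-fold in HSC, in CLP or in both are named. Snrpd3, Hnrnph2 and Srsf9 lie at the lower right and Srsf10 at the upper left.

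In all, 6 members passed 2-fold in both populations. Hnrnpab and Sfrs18 were higher in GRK6-/- each time, and 10.1% of the 10398 genes compared in both populations passed in the same direction. Snrpd3, Hnrnph2 and Srsf9 were higher in GRK6-/- HSC and lower in GRK6-/- CLP, and Srsf10 was lower in HSC and higher in CLP. Opposite directions were found for 10.8% of all genes. For the 5 of the 6 members with a row in all 4 libraries, no 95% interval of counting error reached 0. These genes were chosen by the same ratios, so this adds no support to the differences. On estimated fragments, the log2 ratio of FPKM of Snrpd3 had a 95% interval of 1.05 to 3.08 in HSC and of -4.62 to -2.18 in CLP. For Srsf9 the intervals were 1.44 to 2.64 and -1.81 to -0.70. Those of Hnrnph2 were 1.17 to 1.55 and -2.77 to -2.22, those of Srsf10 were -1.32 to -0.97 and 1.70 to 2.18, and those of Hnrnpab were 1.27 to 1.51 and 0.93 to 1.15. These exact (Clopper-Pearson) intervals leave out the spread between cells, mice and amplifications. Whether the differences between the populations exceed that spread was not tested.

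**Figure D4:**
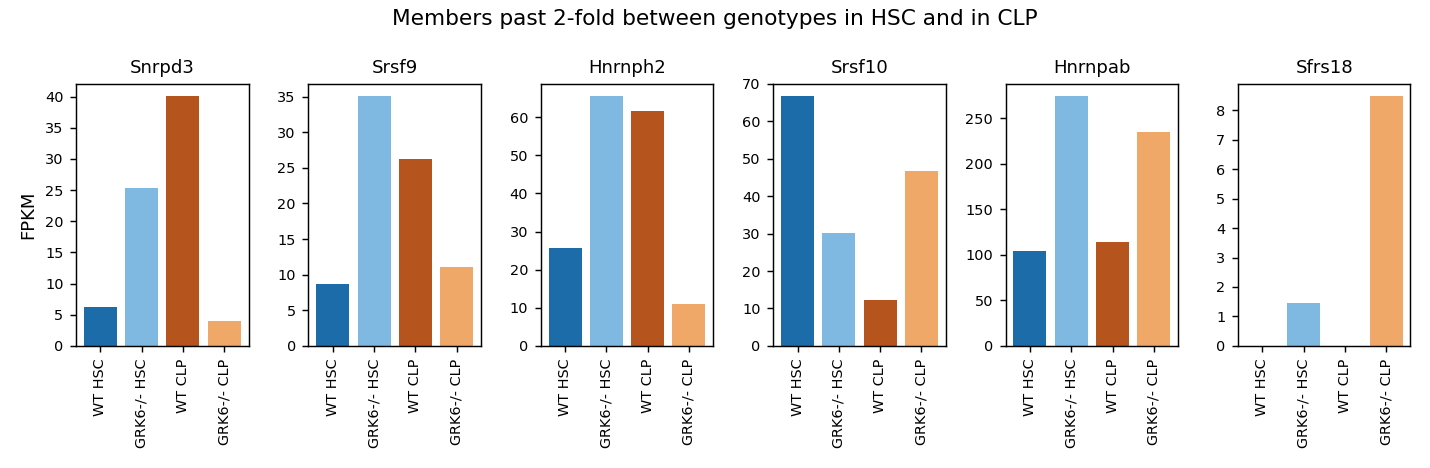
FPKM in the 4 libraries of the 6 members that differed at least 2-fold between genotypes in HSC and in CLP, each panel with its own axis from 0. Snrpd3, Srsf9 and Hnrnph2 are high in GRK6-/- HSC and WT CLP, Srsf10 is low in these libraries, and Hnrnpab and Sfrs18 are higher in both GRK6-/- libraries. GRK6-/- HSC and WT CLP are also the libraries of highest estimated depth.

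A model over all 4 libraries took the genotype effect as common to both populations. In limma on log2(FPKM + 1), 0 of 45 members passed an adjusted p of 0.05 for genotype, and 0.508% of the 11230 genes tested did. At an unadjusted p under 0.05, 1 member passed, Hnrnpab, with a log2 effect of 1.21 ± 0.54 (SE) and an adjusted p of 0.721 (limma). Among all genes, 5.80% passed at that level. With 1 residual degree of freedom, limma gave every gene the spread of the genes at its level, so no gene was tested against its own.

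Between populations, similar numbers of members passed 2-fold. In WT, 6 members were at least 2-fold higher in CLP than in HSC and 4 at least 2-fold lower, 10 of the 44 compared, against 46.5% of all genes. The largest differences were log2 ratios of 2.52 for Snrpd3 and -2.35 for Srsf10. In GRK6-/-, 4 were higher and 6 lower, 10 of 45, against 45.6% of all genes, led by Hnrnph2 with -2.48 and Snrpd3 with -2.40. Hnrnpl was lower in CLP in each genotype, with log2 ratios of -1.22 and -2.14, as was Sf3a3, with -1.01 and -1.18. The comparisons share libraries with those of the genotypes and are not independent of them. For the population effect common to both genotypes, limma called 0 of 45 members, with 0 at an unadjusted p under 0.05 and a lowest adjusted p of 0.814, and 0.712% of all genes.

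Other genes of the splicing machinery were read from lists of 146 symbols, of which 129 had a level in HSC and 133 in CLP. In HSC, 24 were at least 2-fold higher in GRK6-/- and 20 at least 2-fold lower, 34.1% in all, beside 37.4% of all genes. In CLP, 27 were higher and 27 lower, 40.6% in all, beside 50.0%. The highest were Magoh of the exon junction complex at 367, 390.0, 625 and 433 FPKM, the helicase gene Ddx39b at 471, 262, 309 and 336, and Sfpq, a binder of RNA and DNA in paraspeckles, at 603, 99.2, 458 and 179. Sfpq was thus lower in both GRK6-/- libraries, with log2 ratios of -2.59 and -1.35. U2af1, the partner of the SF3 complexes at the 3′ splice site, was at 86.3, 20.6, 32.0 and 9.19. It was lower by the same measure in HSC and CLP, with log2 ratios of -2.02 and -1.69. At least 2-fold lower in both populations were 4.43% of the 10398 genes compared. Of the 11 genes listed for 3′ splice site recognition, 1 was higher and 1 lower in HSC (18.2%). In CLP, 1 was higher and 2 were lower (27.3%). U2af2 stayed within 2-fold, with log2 ratios of -0.58 and -0.50, and U2af1l4 had -0.43 and 3.43.

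The largest genotype differences among these genes in HSC were those of Plrg1 (134.7 against 7.31 FPKM in WT and GRK6-/-, log2 ratio -4.03), Srrm2 (167 against 13.5, -3.53) and Prpf4b (14.8 against 179.9, 3.51). In CLP they were Celf1, at 0 in WT and 22.4 in GRK6-/-, Rbm10, at 0 and 19.1, and Dhx38, at 19.8 against 0.509 with a log2 ratio of -3.78. A value of 0 here can stand for a missing row. Proteins that assemble snRNPs, with Prmt5, the methylase of Sm proteins, gave 5 of 14 past 2-fold in HSC and 8 of 14 in CLP (35.7% and 57.1%), near the 37.4% and 50.0% of all genes. Prmt5 was at 14.0, 29.6, 35.1 and 5.95 FPKM, high and low in the same libraries as Snrpd3. Those libraries are also the ones of higher and lower estimated depth. Prmt5 was picked out for this after its values were seen. Of all genes compared in both populations, 5.07% were at least 2-fold higher in HSC and lower in CLP. On the same list, Wdr77 was at 17.9, 57.0, 32.5 and 33.5 FPKM and Clns1a at 18.6, 29.0, 29.3 and 36.7, without that pattern. LSm proteins, relatives of the Sm proteins, gave 2 of 9 in HSC and 5 of 9 in CLP (22.2% and 55.6%), beside the same 37.4% and 50.0%. Of the 5 in CLP, 4 were lower in GRK6-/-, as were 2620 of the 5593 genes past 2-fold.

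Exons of 13 of the 45 members overlap exons of another annotated gene, and whether strand was used in counting is not given in the sources used here. The longest overlap was that of Hnrnph3 with Rufy2 on the opposite strand, 2379 bases. Rufy2, however, was at 1.13 FPKM in GRK6-/- HSC and counted as 0 elsewhere, which can stand for a missing row. Hnrnpab shares 809 bases with Agxt2l2 on the opposite strand, and reads of these genes cannot be told apart without strand. Snrpd3, Srsf9, Hnrnph2 and Srsf10 overlap no exon of another gene.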

How the data were processed

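RNA-seq values of 4 libraries were used, 1 per population and genotype. The authors primed whole-cell lysates with poly(dT), amplified and pooled the cDNA, aligned paired reads to mm9 (TopHat 1.4.0 in the submitters' processing notes) and deposited FPKM per gene, scaled by transcript length and mapped fragments. Settings, the annotation used and the treatment of reads with several matches are not given in the sources used here. Files hold no counts or bounds, so only levels and ratios could be compared.

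FPKM of rows with 1 symbol was added up, missing rows counted as 0, and genes named in a joint row were left out. Log2 ratios used FPKM + 1, with calls at an absolute ratio of at least 1 and no test, since each group is 1 library. The test was limma 3.58.1 (R 4.3.3, additive model of genotype and population, mean trend, genes of at least 1 FPKM in at least 1 library, Benjamini-Hochberg over all genes). Members and lists were chosen with earlier results of these data known. Any member could be named. All 4 values were given for the 3 highest means of each group, members past 2-fold in both populations, the 5 largest differences each way per genotype comparison (at least 10 FPKM in 1 library) and members lacking a row. Other members shown with 4 values (among them Snrpa, Sf3b1, Hnrnpa2b1, Hnrnpc, Hnrnpu, Hnrnpr and Hnrnpul2) were added after their values were seen. Others of the machinery were named as the 3 highest and the 3 largest differences, with U2af1, Prmt5 and the LSm genes added after their values were seen.

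Depth was estimated from genes with 1 transcript of at least 1500 bases and an FPKM under 0.3, whose values step by 1 fragment. Between 73.8% and 81.6% of these lay within 10% of 1 to 3 steps. At this depth 1 fragment in a transcript of 2 kb is 0.114 to 0.179 FPKM. Intervals cover counting error only, and amplified fragments are not independent molecules. Loci come from the files (mm9), strand and exons from GENCODE M1 and promoters from RefSeq (GRCm38.p6). Scripts were tested on simulated data. Python 3.11.15, pandas 2.3.3, scipy 1.17.1 and matplotlib 3.10.9 were used.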

Additional observations from a re-analysis of the deposited data

Results flagged for a closer look

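Snrpd3, Hnrnph2, Srsf9 and Srsf10 differed between genotypes by at least 2-fold in opposite directions in HSC and CLP, and with 1 library per group this contrast of HSC and CLP could not be tested and was not tested. The log2 ratio of GRK6-/- to WT in HSC minus that in CLP was 4.91 for Snrpd3, 3.71 for Hnrnph2, 3.06 for Srsf9 and -2.97 for Srsf10. Smaller differences of opposite sign were not listed. GRK6-/- HSC and WT CLP, high for Snrpd3, Hnrnph2 and Srsf9 and low for Srsf10, also have the highest estimated depth. The part of depth in this contrast was not tested. Of all genes compared in both populations, 10.8% differed in opposite directions by the same measure, so that a pattern of this kind is common in these libraries.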

How the results depend on the processing

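Counts of members past 2-fold were within 1.5 times the reported ones with a pseudocount of 0.1, either filter on low FPKM, rescaling to a median ratio of 0, the highest row per symbol, or with genes of joint rows kept, added after the data were seen, which sets Hnrnpm and Hnrnpd to 0 where they had no row of their own (13 of 47 in HSC and 10 of 47 in CLP). A pseudocount of 10 left 6 of 45 members in HSC, 5 of 45 in CLP and 6 of 44 between populations in WT. The shares of all genes fell as well, to 11.9%, 21.6% and 18.4%. In HSC the share of members was then not below that of all genes. At an absolute log2 ratio of 2, there were 1 and 3 for genotype and 2 and 3 for population in WT and GRK6-/-. The shares of all genes were then 12.4% and 24.8% for genotype and 20.5% and 19.1% for population. Of 625 member ratios under these alternatives, 9 moved by more than 1.5-fold, all with another pseudocount, and 0 changed direction after a call. Limma called 0 members in all settings run. Its calls over all genes, 57 for genotype and 80 for population, were 29 for genotype with a pseudocount of 10, 1 and 2 with no filter on low values, 12 and 25 with at least 1 FPKM in all 4 libraries, and 0 and 1 without the mean trend, where 500 and 608 passed an unadjusted p under 0.05. The cause was not tested. Depth limits genes such as Snrpd3, with about 7 estimated fragments in GRK6-/- CLP, and Sfrs18, with no row in WT. No paired analysis was possible because each group holds 1 library and shares 1 replicate number, beyond the limma model, which compares genotypes within populations. No library could be left out either.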
